A study of Mus musculus with 24 samples.

Results

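Polysome RNA of mutant and wild-type (WT) dendritic cells was compared over the genes that could be counted in every library. The series table holds 54309 gene models, of which 21741 are protein_coding. The set described here took the 793 protein_coding genes with a count above 0 in each of 6 libraries, 3 labelled LCH (mutant) and 3 labelled WT. Rn18s, Lars2, mt-Rnr1 and mt-Rnr2, called the 4 rRNA-type genes here, were removed before scaling because they took most of the WT counts.

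The cells, called BMDC, were dendritic cells that grow out of mouse bone marrow, here within 7 days in medium rich in GM-CSF. LCH cells stand for Langerhans cell histiocytosis and carry BRAF-V600E according to the series title. WT cells carry the genotype label WT and no named allele. The driver of the mutant allele and its cell type are not given in the sources used here. Both groups received LPS at 100 ug per mL for 3 h, a unit that could not be checked, and then a pulse of cycloheximide at 100 ug per mL, and neither received the BRAF-V600E inhibitor. Gradient fractions holding more than 2 polysomes were pooled, 500 uL each, to give polysome RNA, and an aliquot of the same cells gave total RNA. The pools are named A, BD and C for WT and E, F and GH for LCH. How many animals a pool holds is not given, so p-values measure the spread between these 3 pools a group.

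An mRNA carried by several ribosomes sediments as a polysome, so the RNA of these fractions is enriched for transcripts in translation. BRAF is a kinase of the RAF, MEK and ERK cascade, and V600E makes it active without upstream input. In dendritic cells LPS binds TLR4 and induces cytokine and chemokine genes, and much of the control of TNF acts after transcription, through AU-rich elements in its mRNA. Dendritic cells also show antigen on MHC class II, whose genes are driven together by the CIITA coactivator.

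Depth differed between the genotypes in every library. Outside the 4 rRNA-type genes, the WT libraries held 24065 counts (A), 1171449 (BD) and 111523 (C), and the LCH libraries 8313478 (E), 3206636 (F) and 9732436 (GH). The rRNA-type genes took 71.4 to 99.0% of the WT and 24.98 to 65.1% of the LCH polysome counts. The median count of the 793 genes was 8, 154 and 28 in WT pools A, BD and C, and 1731, 606 and 2054 in LCH pools E, F and GH. Levels below are in CPM, the usual unit of counts scaled to a common library size, with that size set by median ratios over the 793 genes, and are not corrected for gene length. On this scale a single count stood for 67.0 CPM in WT pool A, 12.9 in C and 2.59 in BD, and for less than 1 CPM in each LCH library. A gene therefore entered the set only if WT pool A held it at 67.0 CPM or more.

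**Figure D1:**
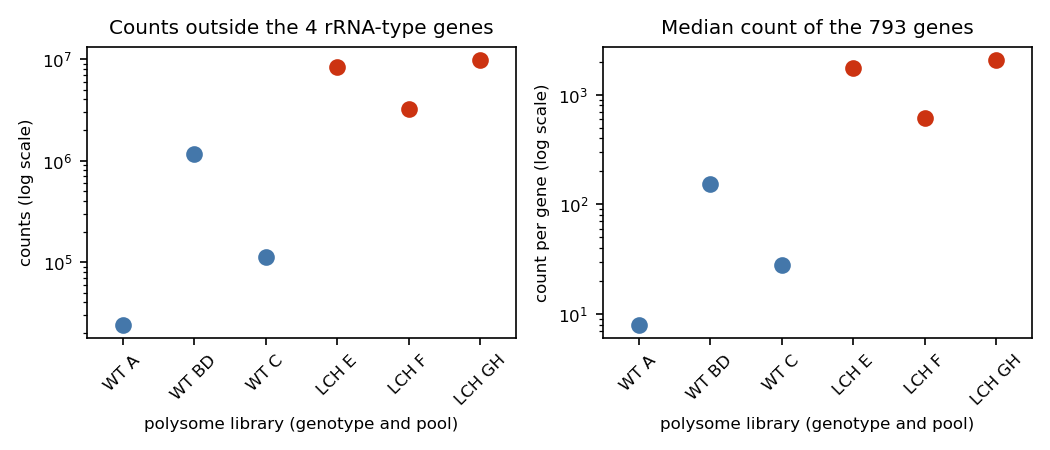
Depth of the 6 polysome libraries without inhibitor. Left, counts outside the 4 rRNA-type genes; right, the median count of the 793 genes; both on a log scale, 1 point per library. WT pool A has the lowest depth, 24065 counts with a median of 8 per gene, and LCH pool GH the highest, 9732436 counts with a median of 2054.

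The 793 genes are abundant ones. By their count in total RNA, 81.5% of them fall in the top 10% of protein_coding genes. They took 49.1 to 51.9% of the counts outside the rRNA-type genes in LCH and 50.2 to 51.9% in WT polysome libraries. The lowest count of a gene over the 6 libraries was 1 for 239 genes and 10 or more for 302 genes. Just outside the set were 1983 protein_coding genes at 0 in exactly 1 library, and for 1486 of them that library was WT pool A. The 1951 of these that were fitted had a median log2 fold change of -0.47, against -0.39 for the 793.

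Replicates agreed far less in WT than in LCH. The Spearman correlation over the 793 genes was 0.913 to 0.962 between LCH libraries and 0.193 to 0.490 between WT libraries. Polysome RNA correlated with total RNA of its own pool at 0.737 to 0.820 in LCH, and at 0.148 (A), 0.595 (BD) and 0.710 (C) in WT. These are descriptions over genes, which are not independent replicates, and they move with depth. The highest WT value exceeded the lowest over 10-fold for 292 genes, and the highest LCH value did so for 11. A single WT library stood over 10-fold above the next for 40 genes.

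The tissue label was checked in total RNA. All 15 dendritic cell markers had counts in both genotypes, and their summed level, as CPM of all counts outside the rRNA-type genes, was 1577 to 2065 in WT and 1826 to 2092 in LCH. In WT polysome RNA 6 of the 15, among them Zbtb46 and Flt3, were at 0 in all 3 libraries. Only Itgax, the CD11c integrin gene, belonged to the 793, with 67.0, 1393 and 618 CPM in WT and 1012, 834 and 837 CPM in LCH. Its groups overlapped, and the log2 fold change was 0.33 (SE 1.16). Of the genes of mast cells and basophils, eosinophils, erythroid cells and stroma or osteoclasts listed for this purpose, none was among the 793. In total RNA the 9 eosinophil markers summed to 374 to 767 CPM in WT and 41.8 to 108 in LCH, and the 10 stromal and osteoclast markers to 239 to 359 in WT and 877 to 1030 in LCH, on the same scale as the dendritic cell sums. The 19 macrophage and monocyte markers summed to 13892 to 21290 CPM in WT and 10702 to 13945 in LCH total RNA, on that scale. These sums run over unlike genes and do not give the share of a cell type. The part of these other cells in the results was not tested. In bulk RNA, fewer cells of a type and less RNA per cell cannot be told apart.

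The main comparison asked which of these transcripts differed in polysome RNA between LCH and WT cells. The data show 13 genes lower and 2 higher in LCH after adjustment. For 9 of the 13 every LCH library was under 67.0 CPM, the least that WT pool A could show for a gene of the set, so the entry rule alone placed them below that pool and their count is a description. The other 4, with LCH levels above that limit, are Tnfsf15, a TNF family cytokine, Mmp8, neutrophil collagenase, mt-Nd5, a subunit of respiratory complex I made in mitochondria, and Naa15, a subunit of the N-terminal acetyltransferase NatA. The 2 higher are the chemokine Ccl4 and Cst3, cystatin C, an inhibitor of cysteine proteases that marks dendritic cells. Calls are at an adjusted p under 0.05 by edgeR's quasi-likelihood test, with Benjamini-Hochberg adjustment over 7727 genes tested. A log2 fold change is LCH minus WT throughout, and SE is its standard error.

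These 15 calls are 1.89% of the 793 genes, while 21.5% of all 7727 genes tested were called. By direction, 0.252% of the 793 were called higher and 1.64% lower, against 21% and 0.518% of all genes tested. The other tested genes include those that passed the low-count filter through the deep LCH libraries alone, so their share is no measure of the 793. An unadjusted p under 0.05 was found for 87 of the 793. The precision was low: the median SE of a log2 fold change was 1.20, against 0.114 for the same genes in total RNA.

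The fitted median log2 fold change of the 793 was -0.39, with quartiles at -1.44 and 0.60. Ranked against this median, a gene at 0 is 0.39 above the centre of the set. With the WT sizes shifted so that the median was 0, a setting chosen after seeing the data, 9 genes were called higher and 8 lower. The split of calls between directions thus rests on the scaling. With the rRNA-type genes kept and library totals as sizes, the median was 2.60 and 7 genes were called, all higher, so every direction here is relative to the other genes of the set. Fitted without the other genes, the 793 gave 40 calls (5.04%), 4 higher (0.504%) and 36 lower (4.54%). Ccl4 and Cst3 were not called in that fit (adjusted p = 0.0657 and 0.0737 by edgeR). Naa15 and mt-Nd5 were not called either (0.0644 and 0.0594), while Tnfsf15 and Mmp8 were (0.0484 and 0.0372). Leaving out a single library gave 2 to 109 calls: 3 without LCH pool E, 5 without F, 2 without GH, and 44, 109 and 104 without WT pools A, BD and C. None of the 15 calls was kept without LCH pool E or GH and 2, Slc35e3 and Naa15, were kept without F. All 15 were kept without WT pool BD or C and 10 without A, where Add3, Lyrm1, Naa15, Nceh1 and Nrp1 were lost. No sign changed, which is a description: where groups do not overlap, leaving out 1 library can hardly turn a sign.

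The LCH libraries lay wholly above the WT libraries for 123 genes, which is 15.5% of the 793, and wholly below for 135 genes, or 17%. Over all 7727 genes tested the shares were 33.6% above and 2.11% below. The entry rule bears on both shares: in 74 of the 793 genes, 54 of them among the 135, every LCH library was under 67.0 CPM, so that WT pool A had to be higher. The share below is thus no finding about the 793.

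**Figure D2:**
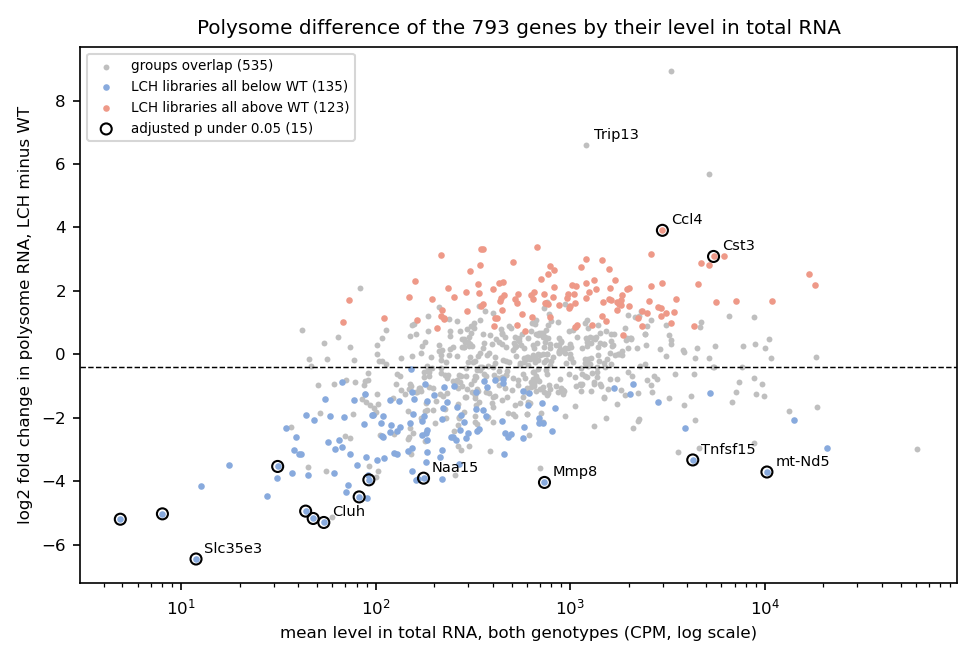
Log2 fold change in polysome RNA (LCH minus WT) of the 793 genes against their mean level in total RNA in CPM on a log scale. Colours mark genes whose LCH libraries lie all above (123) or all below (135) the WT libraries, rings mark the 15 called genes, and the dashed line is the median of -0.39. The lowest fold changes, down to -6.45 for Slc35e3, belong to genes at the left, with low levels in total RNA.

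The chemokine Ccl4, also known as MIP-1 beta, attracts monocytes and T cells. It stood at 8519, 10945 and 11585 CPM in LCH pools E, F and GH, and at 67.0, 1215 and 734 CPM in WT pools A, BD and C. All LCH libraries were above all WT libraries, and the value in WT pool A was a single count. Its log2 fold change was 3.91 (SE 1.19, adjusted p = 0.028 by edgeR), which is 4.30 above the median of the set. In total RNA the groups overlapped, with 2587 ± 645 CPM in WT and 3377 ± 782 CPM in LCH (SD, n = 3).

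Cst3 had 17884, 10404 and 18402 CPM in LCH and 1341, 2447 and 1700 CPM in WT, with 20 counts or more in each WT library. The groups were well apart and the WT values close together for this data set. The log2 fold change was 3.08 (SE 0.99, adjusted p = 0.0385 by edgeR). Cst3 also rose in total RNA, with a log2 fold change of 1.10 (adjusted p = 0.0125), and stood at 3472 ± 1159 CPM in WT and 7449 ± 683 CPM in LCH (SD, n = 3).

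The rule for named genes filled the rises with genes that did not pass. Cfl1, cofilin, which severs actin filaments, had 5707, 3235 and 4754 CPM in LCH and 201, 508 and 798 CPM in WT, and the log2 fold change was 3.16 (SE 1.09, adjusted p = 0.0563). The groups did not overlap. H2-Ab1 and H2-Aa are described with the class II genes. Trip13, an ATPase that acts on HORMA proteins, had a higher fitted value of 6.59 (SE 2.27, adjusted p = 0.0561) that came from a single library, as 5494 CPM in LCH pool GH stood beside 42.1 and 40.6 in E and F. In total RNA the same pool stood apart too, with a mean of 2362 ± 3998 CPM over LCH (SD, n = 3).

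Trip13 was 1 of 10 genes whose LCH level rested on pool GH alone, over 10-fold above the next library. Majin and Catsper1, genes known from germ cells, had 119527 and 97975 counts there, and Majin had 1 count in each of pools E and F. The other 7 are gene models with Gm numbers. In total RNA the fitted log2 fold changes of the 10 were 5.72 to 14.8, none of them called. Pool GH also differed beyond these genes. Outside the rRNA-type genes, its polysome library held counts for 27567 gene models, against 13501 in E and 11089 in F. Total RNA of pool G held counts for 37384, against 17403 in E and 17239 in F. The cause was not tested.

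Tnf, the subject of the series title, had 4172, 5032 and 5920 CPM in LCH polysome RNA and 670.4, 1564 and 2408 CPM in WT. The lowest LCH library was above the highest WT library. The log2 fold change was 1.69 (SE 1.01, adjusted p = 0.321 by edgeR), 2.08 above the median of the set, so the difference did not pass the test. Total RNA gave 6374 ± 1168 CPM in WT and 7883 ± 1308 CPM in LCH (SD, n = 3), with overlapping groups. Braf itself was not among the 793, since WT pools A and C held no count of it.

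The genes called lower were ordered by what their products do, beginning with secreted proteins. Tnfsf15 encodes the cytokine TL1A, which binds the receptor DR3 and costimulates T cells. It had 339, 444 and 393 CPM in LCH and 2279, 3755 and 5768 CPM in WT. No WT library came near the LCH values. The log2 fold change was -3.33 (SE 1.07, adjusted p = 0.0386 by edgeR). In total RNA Tnfsf15 fell as well, with a log2 fold change of -1.15 (adjusted p = 0.00287) and levels of 5892 ± 1002 CPM in WT and 2648 ± 278 CPM in LCH (SD, n = 3).

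Mmp8, a collagenase of neutrophil granules, had 185, 158 and 155 CPM in LCH and 3352, 4071 and 773 CPM in WT. The groups did not overlap, and the log2 fold change was -4.04 (SE 1.18, adjusted p = 0.0251). Its total RNA stood at 789 ± 77.4 CPM in WT and 688 ± 130.2 CPM in LCH (SD, n = 3) with overlapping groups. Mmp8 was the only 1 of 17 neutrophil and granulocyte markers among the 793. As CPM of all counts outside the rRNA-type genes, a scale other than that of the single genes, those markers summed to 2119 to 3927 CPM in WT and 1121 to 1918 in LCH polysome RNA, and 2185 to 4347 and 739 to 1202 in total RNA; 5 of the 17, namely Ctsg, Cxcr2, Fcnb, Prtn3 and Retnlg, were at 0 in all WT polysome libraries. The part of such cells in the value of Mmp8 was not tested.

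The surface receptor gene Nrp1, neuropilin, which binds semaphorins and VEGF, had 24.6, 65.0 and 43.0 CPM in LCH and 2346, 523 and 193 CPM in WT. LCH values were below all WT values, and the WT value of pool A was the highest by far. Every LCH value was under 67.0 CPM, so the entry rule alone placed Nrp1 below pool A, and its direction is a description. The log2 fold change was -4.50 (SE 1.41, adjusted p = 0.0333).

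Naa15 had 231, 907 and 189 CPM in LCH and 11866, 2895 and 5163 CPM in WT. It is the called gene with the most counts in WT pool A, 177, and the groups did not overlap. The log2 fold change in polysome RNA was -3.90 (SE 1.20, adjusted p = 0.0293), while in total RNA Naa15 rose by 0.25 (adjusted p = 0.0393).

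Cluh, an RNA-binding protein of mRNAs for mitochondrial proteins, had 21.8, 10.8 and 17.7 CPM in LCH and 1609, 251 and 206 CPM in WT, and the log2 fold change was -5.30 (SE 1.51, adjusted p = 0.0226). The groups were separate, but every LCH value was under 67.0 CPM, so the entry rule alone placed Cluh below WT pool A. It rose by 0.59 in total RNA (adjusted p = 0.0139), where it stood at 43.2 ± 4.31 CPM in WT and 65.2 ± 8.21 CPM in LCH (SD, n = 3).

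Slc35e3, a member of a family of nucleotide sugar transporters, had the lowest value of the set. It had 10.3, 16.3 and 7.14 CPM in LCH and 2547, 139.8 and 348 CPM in WT. Its WT values rest on 38, 54 and 27 counts. The log2 fold change was -6.45 (SE 1.62, adjusted p = 0.0168). All LCH values were under 67.0 CPM, so the entry rule alone placed Slc35e3 below WT pool A, and its direction is a description. In total RNA it had 10.05 ± 1.04 CPM in WT and 13.8 ± 1.19 CPM in LCH (SD, n = 3), close to its LCH polysome level and far under its WT polysome level.

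The other named falls were Add3, which caps actin at the membrane skeleton (log2 fold change -5.17, SE 1.69), Phtf2 (-4.94, SE 1.43) and Nceh1, a cholesteryl ester hydrolase (-3.96, SE 1.33). For these 3 the WT libraries ranged from 41.4 to 1274 CPM and the LCH libraries from 6.94 to 60.6 CPM. The remaining calls, Wdr31 (-5.20, SE 1.47), Lyrm1 (-5.03, SE 1.53) and Dcaf6 (-3.54, SE 1.10), had fewer than 10 counts in at least 1 library. They were outside the rule for named genes and are given to complete the 15. Adjusted p for these 6 was 0.0219 to 0.0485 by edgeR. All 6 had every LCH library under 67.0 CPM, so the entry rule alone placed them below WT pool A.

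**Figure D3:**
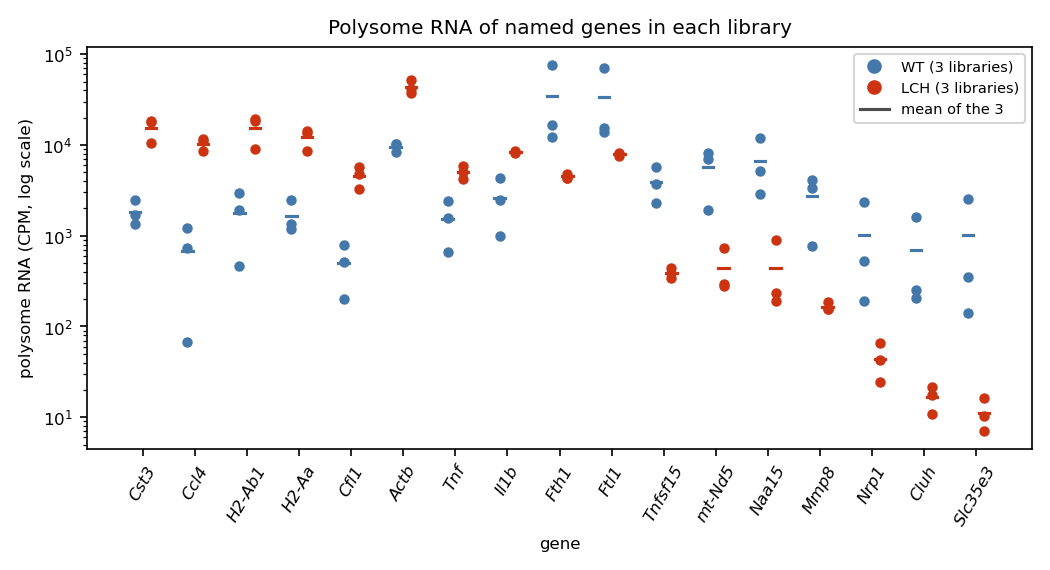
Polysome RNA in CPM on a log scale for 17 genes, with 3 WT libraries in blue, 3 LCH libraries in red and a bar at each mean. In all 17, which were chosen for display, the groups do not overlap, for example 67.0 to 1215 CPM in WT and 8519 to 11585 CPM in LCH for Ccl4. The WT points spread more widely than the LCH points in most. Of the 793 genes 15.5% lie wholly above WT and 17% wholly below, and of all genes tested 33.6% and 2.11%. For Nrp1, Cluh and Slc35e3 every LCH library is under 67.0 CPM, so the entry rule alone places them below WT pool A.

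Level in total RNA went with the direction of the difference, a pattern that the entry rule favours. Split into 4 groups of near equal size by mean count in total RNA, the 793 genes had median polysome log2 fold changes of -1.70, -0.64, -0.01 and 0.28 from the lowest group to the highest. The lowest group held 10 of the 13 genes called lower and 84 of the 135 whose LCH libraries were all below WT. The highest group held both genes called higher and 52 of the 123 that were all above. Over the 793 genes, Pearson's r of fold change with log total count was 0.44, and the points share libraries and depth. Every gene had to reach the entry level of 67.0 CPM in WT pool A. A gene with a lower level elsewhere could thus enter only with a higher value in that pool. In 9 of the 13 and 54 of the 135 every LCH library was under that level. The trend with level is therefore a description.

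Of the lists with at least 3 genes in the set, MHC class II had the highest median. Among all 793 genes 15.5% lay wholly above WT, and among all genes tested 33.6%. Of its 11 genes, 5 were among the 793, and all 5 had a log2 fold change above the median of the set, with a list median of 2.83. None was called, and 4 of the 5 did not overlap between groups. H2-Ab1, the beta chain of I-A, had 18423, 9070 and 19194 CPM in LCH and 469, 2952 and 1931 CPM in WT (log2 fold change 3.11, SE 1.08, adjusted p = 0.0567). H2-Aa, the alpha chain, had 14442, 8560 and 13675 CPM in LCH and 1341, 2486 and 1172 CPM in WT (2.87, SE 1.00, adjusted p = 0.0595). Both showed a clear gap between the groups. H2-Eb1, the beta chain of I-E, had 12581, 5508 and 13162 CPM in LCH and 201, 1753 and 2395 CPM in WT (2.83, SE 1.13, adjusted p = 0.11). The invariant chain gene Cd74 had 26201, 8863 and 30247 CPM in LCH and 268, 2434 and 8640 CPM in WT (2.52, SE 1.21, adjusted p = 0.201). Pool F was the lowest LCH library for these 4 genes, and for Cd74 it was barely above WT pool C. Ctss, the cathepsin that cuts the invariant chain, overlapped between groups (0.12, SE 1.18). In total RNA H2-Ab1, H2-Aa and H2-Eb1 rose by 0.77, 0.63 and 0.65 on the log2 scale (adjusted p = 0.028, 0.0355 and 0.0414) and Ctss fell by 0.67. The median of the list stayed between 2.35 and 3.20 without any 1 library.

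Class II promoters are known to carry an X box and a Y box, the latter an inverted CCAAT motif read by NF-Y. Of the 5 genes 3 matched the RefSeq promoter table (GRCm38.p6), and 100 bases before the start are shown for a pair of them, chosen after their values were seen, with the Y box letters CTGATTGG in capitals. H2-Aa lies on the minus strand at chr17:34287824-34287923 and H2-Eb1 on the plus strand at chr17:34305767-34305866.
H2-Aa: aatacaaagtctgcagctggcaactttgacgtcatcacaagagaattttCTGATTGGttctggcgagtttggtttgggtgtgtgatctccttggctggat
H2-Eb1: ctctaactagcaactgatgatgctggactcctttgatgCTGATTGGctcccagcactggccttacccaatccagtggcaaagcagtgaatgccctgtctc
The third, Ctss, has neither these letters nor their reverse complement in its window of 250 bases. The capitals begin 51 and 62 bases before the annotated start. CTGATTGG or its reverse complement CCAATCAG was in 1258 of 32851 promoter windows of 250 bases, or 3.83%. A match of letters is a description only.

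Chemokine genes were represented by 13 of 22 listed. Ccl4 was called higher and the other 12 did not pass, while 6 of the 13 lay wholly above WT and none wholly below, against 33.6% above and 2.11% below for all genes tested and 15.5% above and 17% below for the 793. The median was 1.25, and it was 0.79 without WT pool A and 1.86 without BD. Ccl3, also known as MIP-1 alpha, had 5604, 4727 and 7285 CPM in LCH and 201, 1707 and 1867 CPM in WT (log2 fold change 2.20, SE 1.09, adjusted p = 0.219). Ccl17, a ligand of CCR4, had 2.06 (SE 1.17), and the membrane-bound Cxcl16 had 2.34 (SE 1.15). In total RNA 3 of the 13 rose and 2 fell.

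Cytokines gave 10 of 31 genes, with Tnfsf15 called lower and a median of 0.70, which was 1.33 without WT pool C and 0.32 without A. Il1b, the precursor of the inflammasome product IL-1 beta, had 8173, 8618 and 8438 CPM in LCH and 1006, 2458 and 4326 CPM in WT. Its groups did not overlap (log2 fold change 1.69, SE 0.99, adjusted p = 0.317), and in total RNA it rose by 0.85 (adjusted p = 0.00211). Spp1, osteopontin, had 1.66 (SE 1.15). Il12b, the p40 chain of IL-12 and IL-23, had 211, 112 and 364 CPM in LCH and 67.0, 495 and 4738 CPM in WT, so its value of -2.96 (SE 1.42) rests on WT pool C. It fell by 1.03 in total RNA (adjusted p = 0.00479).

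The LPS and interferon lists showed no call in polysome RNA. NF-kB feedback and LPS response held 17 of 34 genes with a median of 0.32, of which 4 lay wholly above WT. Its median was -0.03 without WT pool BD and 0.85 without C. The interferon response held 13 of 35 with a median of 0.65, which was 1.84 without WT pool C and 0.16 without BD. Of those 13 genes 4 lay wholly above, near the 33.6% of all genes tested, while the share of the 793 was 15.5%. Bst2, tetherin, which holds virus particles at the cell surface, had 1539, 3497 and 2224 CPM in LCH and 67.0, 487 and 129 CPM in WT (log2 fold change 3.33, SE 1.20, adjusted p = 0.0689). Ifitm3, which hinders virus entry, had 1.78 (SE 1.04), and Slfn2 had 1.48 (SE 0.97). MAPK output, the list nearest to the mutant kinase, had only Dusp5 of 26 genes in the set; its groups overlapped in polysome RNA (0.98, SE 1.16) and it rose in total RNA by 1.48 (adjusted p = 0.0489). Of the 19 immediate early genes, 2 were in the set and neither passed, with 2.23 (SE 1.11) for the AP-1 gene Jund.

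Genes of class I antigen processing and of the cytoskeleton gave no call. All 10 members of the list of MHC class I and proteasome (of 25) were above the median of the set, 5 lay wholly above WT, and the list median was 0.93. The immunoproteasome subunit Psmb8 had 910.3, 1032 and 1079 CPM in LCH and 67.0, 209.8 and 103 CPM in WT (log2 fold change 2.91, SE 1.17), and the peptide transporter Tap1 had 2.20 (SE 1.11). Neither was called in total RNA. Of the 40 genes of actin and cytoskeleton 22 were in the set, with a median of 0.40, which was 0.89 without WT pool C. Of the 22 genes 8 lay wholly above, near the 33.6% of all genes tested, while the share of the 793 was 15.5%. Actb, beta actin, had 41521, 52321 and 37660 CPM in LCH and 10190, 8367 and 10288 CPM in WT (2.19, SE 0.90, adjusted p = 0.119), while its total RNA was 18469 ± 1083 and 17689 ± 1953 CPM (SD, n = 3). The light chain Myl6 had 2.74 (SE 1.17) and S100a11 had 2.80 (SE 1.15), each with 1 count in WT pool A.

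Lysosome and cathepsin genes gave 17 of 28, with Cst3 called higher and a median of -0.03, which was 1.51 without WT pool BD and -0.40 without A. Ctsc, cathepsin C, had -2.26 (SE 1.19) with overlapping groups. For the lists of this paragraph, the shares wholly above and below WT were 15.5% and 17% of the 793. Over all genes tested they were 33.6% and 2.11%. All 6 cell cycle genes in the set, of 33, were above its median, 4 lay wholly above WT and the list median was 1.95. They include the tubulins Tubb5 (2.13, SE 1.10) and Tuba1b (1.96, SE 1.15), the proliferation marker Mki67 (2.28, SE 1.20) and the chromatin protein Hmgb2 (1.93, SE 1.15), none of them called. ER chaperones and secretion held 10 of 32 with a median of 0.85, 4 wholly above and 1 below; Hsp90b1, the chaperone of Toll-like receptors, had 2.33 (SE 1.07) and rose in total RNA by 0.56 (adjusted p = 0.0101). Cytosolic chaperones held 12 of 23 with a median of 0.29 (0.87 without WT pool A), 5 wholly above, among them Hspa4 (2.63, SE 1.40). Glycolysis and hypoxia held 6 of 23 with a median of -0.16 (0.49 without WT pool A), with Ldha (1.63, SE 1.02) and Pkm (1.46, SE 0.99) wholly above.

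**Figure D4:**
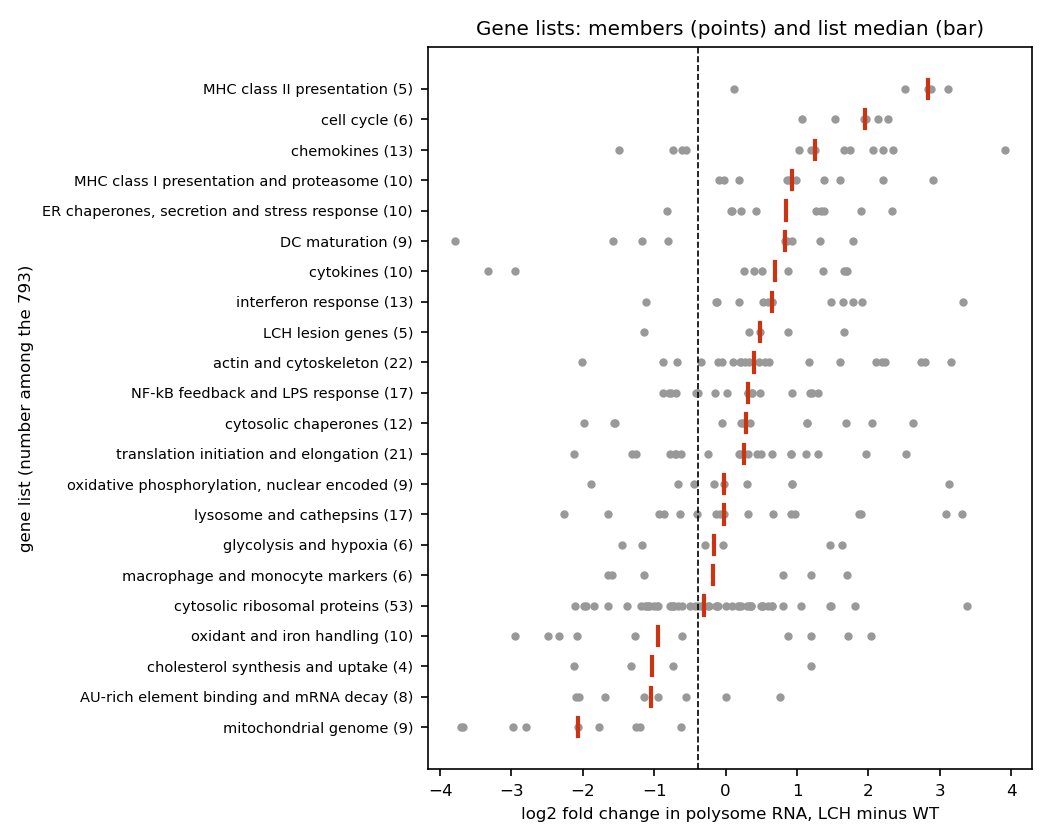
Polysome log2 fold changes (LCH minus WT) of the genes of each list with at least 3 genes among the 793, as points, with the list median as a red bar and the median of the set (-0.39) as a dashed line. MHC class II has the highest median, 2.83, and the mitochondrial genome the lowest, -2.07.

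Genes of the translation machinery spread to both sides. Of the 80 cytosolic ribosomal protein genes 53 were in the set, none was called, and their median was -0.30, near that of all 793. Without WT pool BD that median was 1.29, and without pool A or C it was -0.52 or -0.77, so its sign rests on BD. Ribosomal protein counts can be split with near-identical pseudogenes. Rplp2, a protein of the ribosomal stalk, had 8194, 17169 and 6602 CPM in LCH and 871, 2015 and 155 CPM in WT (log2 fold change 3.39, SE 1.18, adjusted p = 0.0604). Rps2 had 2108, 1905 and 2006 CPM in LCH and 2145, 22468 and 1300 CPM in WT, so that its value of -2.11 (SE 1.20) turned to 0.22 without WT pool BD. Initiation and elongation factors gave 21 of 42 genes with a median of 0.25, 5 wholly above WT and 3 below. That median was -0.15 without WT pool C and 0.72 without A. Of the 793 genes 15.5% lay wholly above WT and 17% wholly below, and of all genes tested 33.6% and 2.11%. The scaffold Eif4g1 had 2.52 (SE 1.22), Btf3 1.96 (SE 1.11), the helicase Eif4a2 -2.12 (SE 1.26) and the elongation factor Eef1a1 -1.31 (SE 0.97). Of the 29 genes of AU-rich element binding and mRNA decay 8 were in the set, with a median of -1.04 (-1.58 without WT pool C). The poly(A)-binding protein Pabpc1 had -2.05 (SE 1.14) and the deadenylase Cnot6 -2.10 (SE 1.31), neither of them called.

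Among lists with at least 3 genes in the set, the mitochondrial genome had the lowest median. Of 13 mRNAs of the mitochondrial genome, 9 were in the set and all 9 lay under its median, with a list median of -2.07 and 1 call. The median was -1.32 without WT pool C and -2.55 without A. These transcripts are made and translated inside mitochondria, on their own ribosomes. For mt-Nd5 the LCH libraries had 292, 738 and 279 CPM and the WT libraries 6972, 1945 and 8228 CPM (log2 fold change -3.71, SE 1.15, adjusted p = 0.0302). The groups did not overlap. For mt-Nd6 they had 31.1, 177 and 63.0 CPM and 2279, 326 and 901 CPM (-3.67, SE 1.33, adjusted p = 0.0715). For mt-Co1 the groups overlapped, with 2144, 4641 and 1934 CPM in LCH and 12134, 2191 and 54131 CPM in WT (-2.97, SE 1.21). All 9 fell in total RNA, mt-Nd5 with a log2 fold change of -1.71 (adjusted p = 0.00399). Mitochondrial mRNAs took 0.591 to 7.92% of the WT and 0.528 to 1.35% of the LCH polysome counts outside the rRNA-type genes, the lowest WT share being that of pool BD. The 9 nuclear genes of oxidative phosphorylation in the set, of 44, had a median of -0.02 (0.49 without WT pool A), with Atp5l, a subunit of ATP synthase, at 3.12 (SE 1.16, adjusted p = 0.08).

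The ferritin genes did not pass the test. Fth1, the heavy chain that oxidises and stores iron, had 4326, 4371 and 4847 CPM in LCH and 12134, 75625 and 16623 CPM in WT (log2 fold change -2.95, SE 1.05, adjusted p = 0.067). Ftl1, the light chain, had 8164, 8015 and 7606 CPM in LCH and 15552, 71435 and 13970 CPM in WT (-2.09, SE 1.00, adjusted p = 0.202). Neither overlapped, and in both WT pool BD was the highest. Ferritin genes have processed pseudogenes that can share reads. The list of oxidant and iron handling held 10 of 25 genes with a median of -0.94, 4 wholly below WT and 3 above. Among all 793 genes 17% lay wholly below and 15.5% above, and among all genes tested 2.11% and 33.6%. Srxn1, which repairs peroxiredoxins, had -2.49 (SE 1.18), and Cybb, the NADPH oxidase subunit, -2.33 (SE 1.11). Fth1, Ftl1, mt-Co1, Psap, Eef1a1, Lyz2, Ctsd and Rps3a1 had the highest mean scaled counts in WT, and of these 8 all but the ferritins overlapped between groups.

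The remaining lists had few genes in the set. DC maturation held 9 of 21 with a median of 0.83 and a highest log2 fold change of 1.79. Of these 9 genes 3 lay wholly above WT and 1 below. The shares were 15.5% above and 17% below for the 793, and 33.6% and 2.11% for all genes tested. Cd83, a maturation marker, had 337, 368 and 368 CPM in LCH and 1006, 1062 and 1146 CPM in WT (log2 fold change -1.58, SE 1.05, adjusted p = 0.387). Cacnb3 had -3.79 (SE 1.51). The DC maturation median was 0.28 without WT pool BD. LCH lesion genes held 5 of 19 with a median of 0.49, which was 1.23 without WT pool BD and 0.03 without A. Cholesterol synthesis and uptake held 4 of 30 with a median of -1.03, which turned to 0.23 without WT pool BD and was -1.49 without C. Macrophage and monocyte markers held 6 of 19 with a median of -0.17, which turned to 0.68 without WT pool BD and was -0.59 without A. They include Cd14, the LPS coreceptor (1.70, SE 1.07), and Lyz2, lysozyme (-1.65, SE 1.17). As CPM of all counts outside the rRNA-type genes, those 19 markers summed in polysome RNA to 1745 to 20178 CPM in WT and 5850 to 11255 in LCH. None of the genes of these lists was called.

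Total RNA of the same pools gave a second readout that the choice of genes did not use. Of the 793 genes edgeR called 117 higher (14.8%) and 125 lower (15.8%) in LCH, 30.5% in all. Of the 12625 genes tested there 28.9% were called, 17.7% higher and 11.2% lower. Of the 15 genes called in polysome RNA, Cst3 was called higher in both, and Tnfsf15, mt-Nd5, Add3 and Dcaf6 were called lower in both. Naa15 and Cluh were called in opposite directions, lower in polysome and higher in total RNA. Add3, Dcaf6 and Cluh are among the 9 genes called lower whose LCH libraries were all under 67.0 CPM. The entry rule alone placed them below WT pool A in polysome RNA, so their direction there is a description. The log2 fold changes of polysome and total RNA correlated over the 793 genes with a Pearson's r of 0.24, and 0.28 over 783 genes without those that rest on LCH pool GH. This is a description over genes, and the pairs of libraries come from the same pools.

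**Figure D5:**
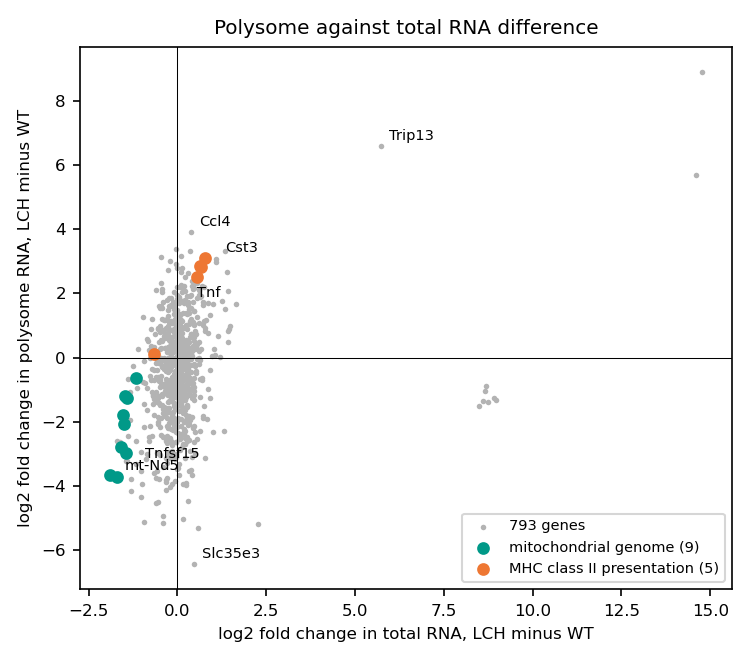
Log2 fold change (LCH minus WT) in polysome RNA against that in total RNA for the 793 genes, with the 9 mitochondrial mRNAs in green and the 5 class II genes in orange. The mitochondrial genes lie in the lower left, 4 of the 5 class II genes in the upper right, and the 10 points beyond 5 on the horizontal axis are the genes that rest on LCH pool GH.

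The difference between the fractions was tested directly, as an interaction of fraction and genotype with the pool as a block. By edgeR, none of the 793 genes was called, and the smallest adjusted p was 0.0996; 92 had an unadjusted p under 0.05, and DESeq2 called 117 in the same design. Without the block edgeR called 86 (10.8%), against 23.7% of the 12704 genes tested. For Tnf the polysome difference exceeded the total RNA difference by 1.65 in log2 units (SE 0.84, adjusted p = 0.289). For Ccl4 the excess was 4.05 and for Naa15 -4.22, both with an adjusted p of 0.0996. For Cst3 it was 2.02 (adjusted p = 0.2) and for Tnfsf15 -1.99 (adjusted p = 0.198), so neither passed.

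The same genotypes were also profiled after the BRAF-V600E inhibitor, given 1 h before LPS, in other libraries of pools with the same letters. Only 248 of the 793 genes had a count in all 6 of those polysome libraries. Of these, edgeR called 24, or 9.68%, all lower in LCH, against 39.2% of the 7441 genes tested there and 3.51% lower. These genes too had to have a count in each WT library, so the count lower is a description. Of the 15 genes called without inhibitor 5 could be counted, with the same sign in all 5, and 3 were called: Naa15 (-6.18), Tnfsf15 (-6.28) and mt-Nd5 (-5.42), each with adjusted p = 0.0263. Among mitochondrial mRNAs 6 of 8 counted were called lower with inhibitor, and Fth1 was called too, at -3.17 (adjusted p = 0.0263). All 5 class II genes were counted with inhibitor and none was called. Their median log2 fold change was 1.12, against 2.83 without inhibitor. Ccl4 had 0.93 (adjusted p = 0.407), Cst3 0.88 (adjusted p = 0.586) and Tnf 1.41 (adjusted p = 0.279). Over the 248 genes the fold changes without and with inhibitor had a Pearson's r of 0.64, as a description. No call was left without WT pool BD (0 of 248, with 61 at an unadjusted p under 0.05), and the count was 8 to 52 without any other library. Whether the inhibitor changed a difference was not tested.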

How the data were processed

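RNA was sequenced in 24 libraries of mouse BMDC, in 8 groups of 3. The raw counts deposited by the authors were used for all tests. Per the submitters' processing notes Salmon and DESeq2 were used, with the build mm9; versions are not given in the sources used here. The regularised log2 values deposited by the authors for polysome RNA, named rlog per the file headers, served as an alternative; other deposited tables were not used. File coordinates were not printed, as their build could not be settled.

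Columns carry pool letters, not replicate numbers, and were assigned to groups by genotype, inhibitor and fraction in their names. Polysome pool GH and total RNA pool G were taken as the same culture. The 4 rRNA-type genes were left out. Library sizes were median ratios over the 793 genes. Counts were fitted with edgeR 4.0.16 (R 4.3.3), quasi-likelihood with robust dispersions, over the 793 genes and every other gene model passing filterByExpr (minimum count 10). All tests were two-sided, with Benjamini-Hochberg adjustment over all genes tested. Intervals of single counts were not used; SE comes from the test statistic. The script was tested on simulated data. DESeq2 1.42.0 and limma 3.58.1 gave alternatives.

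Each comparison used its own 6 libraries and the interaction test both sets, with total and polysome RNA of a pool paired by the design text. The correlation of same-pool deviations was 0.88, 0.50 and 0.91 in LCH and 0.17, 0.18 and -0.05 in WT. Between unlike pools it ranged from -0.88 to 0.78 in LCH and from -0.19 to 0.09 in WT. Total RNA libraries held 19046640 to 27067760 counts and the polysome libraries 2467373 to 12972823.

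Named genes were Tnf and Braf, the called genes with at least 10 counts in all 6 libraries and no overlap (up to 14 a direction, filled to 6 by smallest p), the 8 highest in WT, and up to 4 of each of 31 lists by smallest p. Gm and Rik models were passed over. The genes and lists were chosen with earlier results of these data known. Some genes that the rule names are not reported here.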

Additional observations from a re-analysis of the deposited data

How the results depend on the processing

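Of 15 polysome calls with median-ratio scaling, TMM over the 793 genes gave 12 and the median set to 0 gave 17. Cst3 was not called with TMM (adjusted p = 0.0528 by edgeR), over genes with at least 10 counts (0.0666) or with all 12 polysome libraries (0.0958). It was called with summed counts as sizes (0.0211 by edgeR) and by DESeq2. Ccl4 was called with TMM (0.0399 by edgeR). Calls numbered 34 with summed counts as sizes, 143 by DESeq2, 40 in the 793 genes alone, 28 over genes with at least 10 counts in all 6 libraries, 27 with all 12 polysome libraries, 4 without a low-count filter, 7 with the rRNA-type genes kept, 3 by limma voom with quality weights and 0 by limma on rlog values (161 at an unadjusted p under 0.05); the cause was not tested. Leaving out a library gave 2 to 109 polysome calls, 101 to 298 in total RNA (242 in the full fit; 101 without WT pool C, 136 without LCH pool F, 140 without E) and 0 to 52 with inhibitor, where DESeq2 called 59 against 24.

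No paired analysis was possible because WT and LCH pools differ and columns carry letters, so no replicate block applies to the genotype comparisons. For the fraction by genotype test the replicate block gave 0 calls, no replicate block gave 86 and DESeq2 with the block 117; leaving out a pool gave 0 to 61, the 61 without WT pool C.

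With the rRNA-type genes kept, the log2 fold changes of Srxn1 (0.11), mt-Co1 (0.60), mt-Nd4 (0.69), Il12b (0.60), Eef1a1 (1.83), Eif4a2 (1.83), Pabpc1 (0.10), Cnot6 (1.36), Cd83 (1.28), Lyz2 (0.43) and Cacnb3 (0.63) turned positive, with the median of all 793 at 2.60. Leaving out 1 library put Itgax between -0.14 (without WT pool A) and 1.23, and Rps2 between -2.57 and 0.22 (without BD). Depth of the WT libraries limits all polysome values.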
